A study of Mus musculus with 26 samples.

Results

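Induced pluripotent stem cells (iPSC) were compared with embryonic stem cells (ESC) over 13261 of the 18198 genes in the deposited table, namely those at 10 or more in 2 or more of the 4 libraries of these groups. Each group had 2 libraries. The ESC were of strain CBA/CaJ X C57BL/6J at passages 20 to 24, and the iPSC were at passages 5 to 8. Both were kept in N2B27 medium with 2i and LIF. The iPSC were picked as colonies after mouse embryonic fibroblasts (MEF) had been infected with retrovirus, and the labels give neither their strain, nor the factors used for these lines, nor how many colonies they came from. MEF, at passage 2 in medium with 10% serum, also had 2 libraries and were used to separate genes that fibroblasts express from those that they do not. Day 7 of the reprogramming course, in which MEF carried Pou5f1, Sox2 and Klf4 (OSK), served as a further point of reference with 2 libraries. Passage, strain and route of derivation cannot be told apart from cell type in this design, and whether the replicates came from separate cultures is not labelled, so p-values measure only the spread between libraries, which may be technical.

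The 2i medium holds inhibitors of the kinases MEK and GSK3. Blocking MEK keeps ERK from being activated, which lowers the transcription of ERK-dependent genes such as those of the Dusp phosphatases and Sprouty proteins, and LIF acts through STAT3, whose targets include Socs3. Under these conditions mouse pluripotent cells hold a naive state, marked by factors such as Nanog, Esrrb and Tfcp2l1. Fibroblasts instead make collagens and other matrix proteins, and express AP-1 transcription factors of the Jun and Fos families. During reprogramming the fibroblast genes are shut off before the pluripotency genes are fully active.

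Values were a normalised score with the same distribution in every library, so that sequencing depth could not be read from them and library totals ran from 4619641 to 4624161. All 9 embryonic stem cell markers were at 10 or more in both groups, with summed values of 23432 and 23217 in iPSC, 25071 and 25319 in ESC, and 32 and 9 in MEF. All 14 fibroblast markers were at 10 or more in iPSC and 10 of 14 in ESC. Their summed value was 8345 and 15560 in iPSC, 263 and 839 in ESC, and 97102 and 102119 in MEF. The fibroblast sum was thus higher in replicate 2 of iPSC than in replicate 1, a difference set beside several of the results that follow. In bulk samples, fewer cells of a type and less RNA per cell cannot be told apart.

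In iPSC, 604 genes (4.55% of 13261) were called higher than in ESC and 244 (1.84%) were called lower, by an adjusted p below 0.05 together with a log2 fold of 1 or more, where folds are differences between groups in the mean of log2(value + 1). The median fold of all genes compared was -0.01. Genes were then placed by their level in MEF: MEF-high if both MEF libraries were at 10 or more and exceeded all 4 stem cell libraries, with a mean log2 value at least 1 above the higher stem cell group, MEF-low if both were under that group by the same margin, and MEF-between otherwise. Of 1948 MEF-high genes, 483 (24.8%) were called higher in iPSC and 10 lower. Of 4304 MEF-low genes, 45 (1.05%) were called higher and 162 (3.76%) lower, and of 7009 MEF-between genes 76 were called higher and 72 lower. MEF-high genes made up 80.0% of the genes called higher, and MEF-low genes 66.4% of those called lower. Of the genes called higher, 226 MEF-high, 25 MEF-low and 30 MEF-between ones were under 10 in both ESC libraries. They entered the comparison through iPSC alone and could only come out higher. Likewise 84 MEF-low and 23 MEF-between genes called lower were under 10 in both iPSC libraries. The filter thus fixed part of each split in advance. It did so for the gene lists below as well, where the number of such members was not counted list by list. Without iPSC replicate 2 the called genes numbered 354 higher and 108 lower, without ESC replicate 1 the lower ones numbered 105 and without ESC replicate 2 they numbered 155. With the spread taken from the 4 iPSC and ESC libraries alone they numbered 217 higher and 159 lower. Of the 132 called genes that were named by rule, 67 kept the call with that spread. Among those given with a fold or a level below, it ended the calls of Thbs1, Col12a1, Tagln, Runx1, Hoxc6, Col6a1, Osmr, Igf2, Ccnd2, Aire, Socs3, Myc, Dmgdh, Stra8, Pgk1 and the 5 Rhox genes. Adding 0.1 in place of 1 before log2 ended those of Dnmt3l, Aire, Ndufa4l2, Dmgdh, Stra8, Rhox1, Rhox2a, Rhox6 and Rhox13, and adding 10 that of Ereg.

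**Figure D1:**
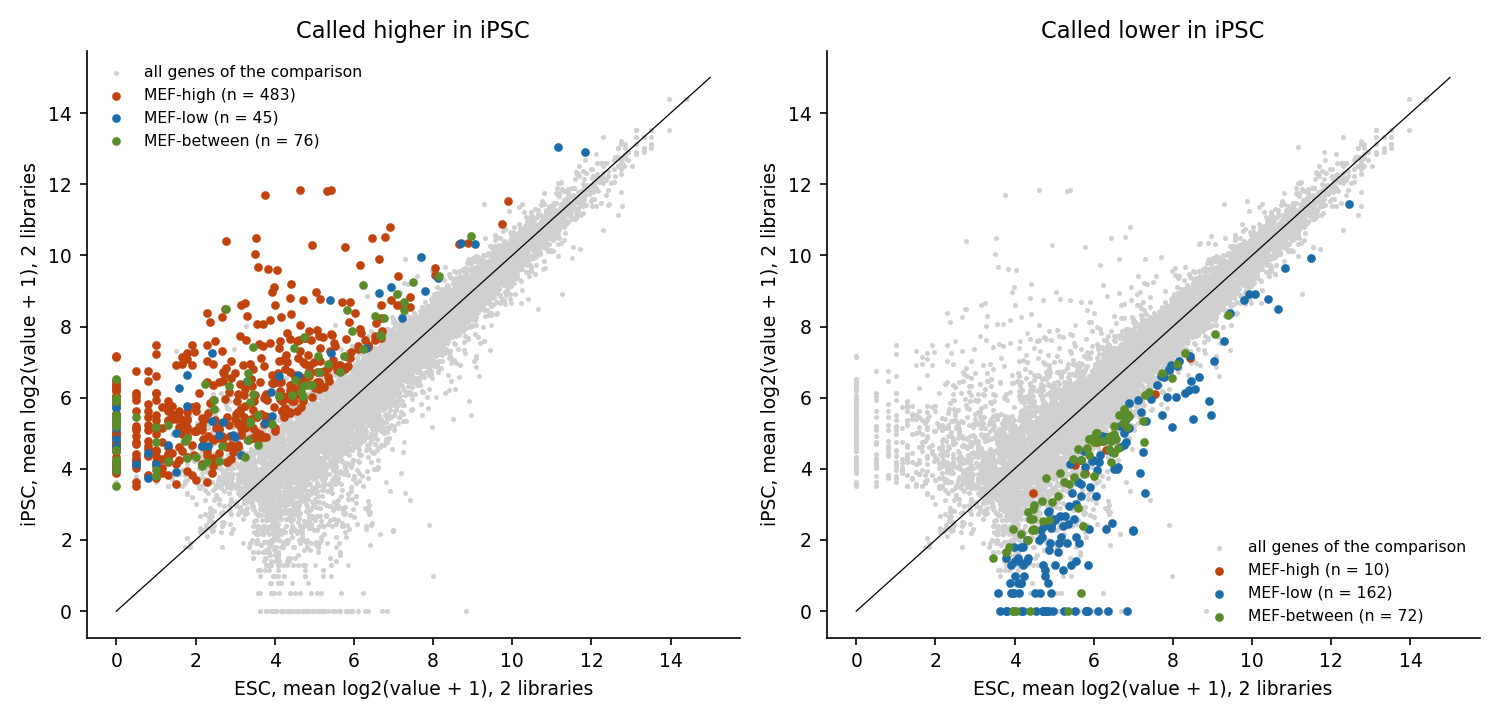
Mean log2(value + 1) over 2 ESC libraries (x axis) and 2 iPSC libraries (y axis) for the 13261 genes compared, with genes called higher in iPSC coloured in the left panel and those called lower in the right panel, by their class in MEF. Most coloured points on the left are MEF-high (483 of 604), and most on the right are MEF-low (162 of 244).

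Among 61 genes that reached 500 in both MEF libraries and were at most 10 in both ESC libraries, the median value in percent of the MEF mean was 4.75 in iPSC replicate 1 and 8.60 in iPSC replicate 2, against 0.111 and 0.258 in the ESC libraries, where the limit of 10 used to choose the genes caps the share. In 59 of the 61 genes iPSC replicate 2 was above replicate 1. The share was not the same for every gene. It was under 2% for 6 genes, among them Eln, which encodes elastin, at 0.361%, and Pdgfra, the receptor of platelet-derived growth factor that marks fibroblasts, at 1.23%. It was over 20% for 3 genes. Of the 483 MEF-high genes called higher, 433 were higher in iPSC replicate 2 than in replicate 1, with a median log2 difference of 0.62 against 0 over all genes compared. Over all 1948 MEF-high genes, called or not, 1354 were higher in iPSC replicate 2, with a median log2 difference of 0.18. In ESC, 264 of the same 483 were higher in replicate 2, with a median log2 difference of 0.24. The part of fibroblast cells or their RNA in these values was not tested.

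**Figure D2:**
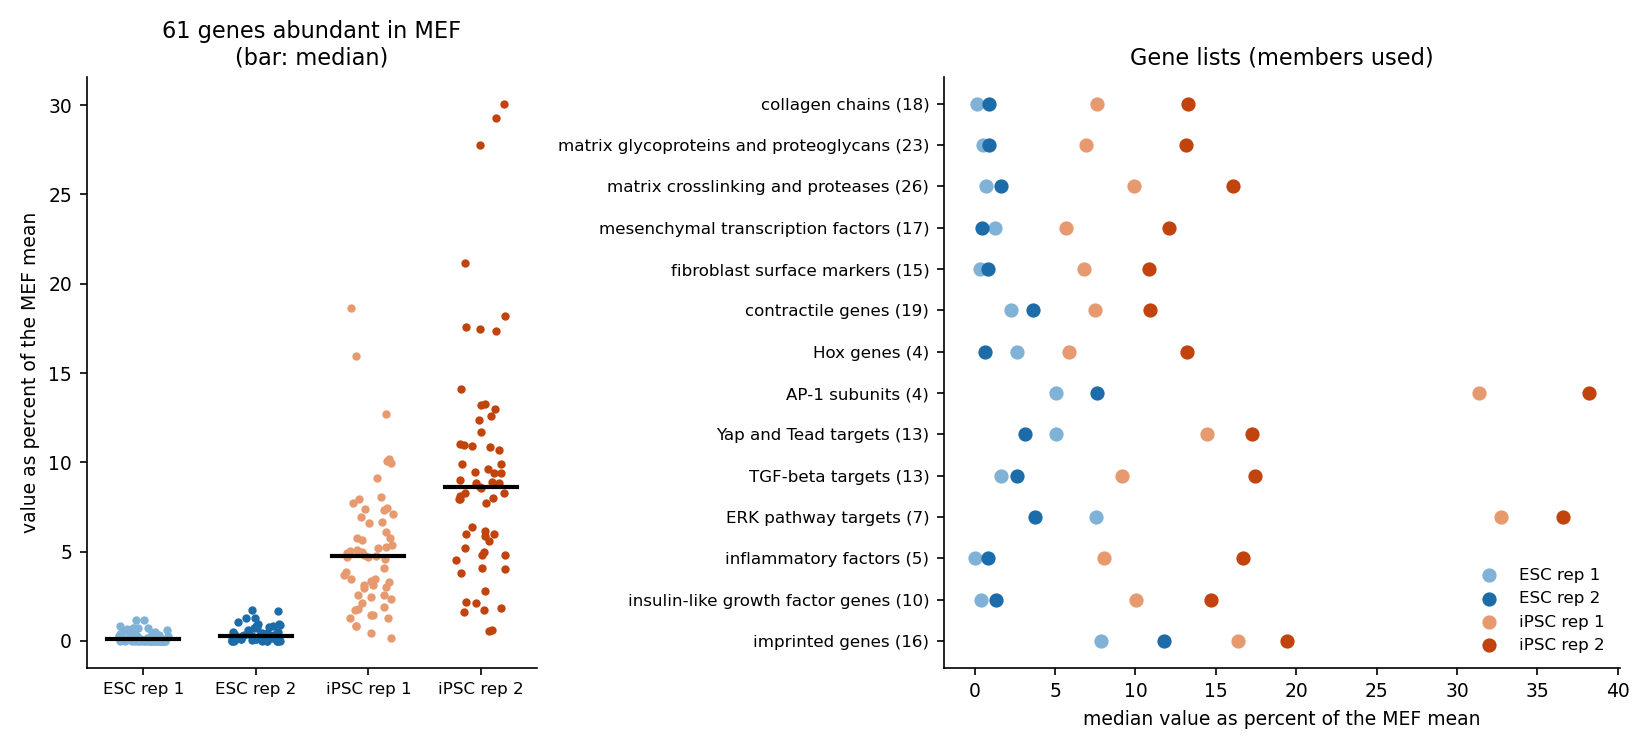
Value in percent of the MEF mean, for each of 61 genes abundant in MEF in the 4 libraries (left, bars are medians), and as the median of each gene list (right, number of members with a MEF value of at least 100 in brackets). The iPSC medians are 4.75% and 8.60% at left, and AP-1 subunits and ERK pathway targets lie furthest to the right, above 30% in both iPSC libraries.

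Most members of the matrix lists were called higher in iPSC. Col12a1 (chromosome 9:79598991-79718831, GRCm38), a collagen that sits on the surface of fibrils, was at 8 and 67 in ESC, 2150 and 6115 in iPSC, and 21544 in both MEF libraries, which is the highest value of the table. Both iPSC libraries were far above both ESC libraries, with a log2 fold of 7.20 (SE 0.74, adjusted p = 5.82e-06). Col4a1, a basement membrane collagen, was at 18 and 22 in ESC and 364 and 535 in iPSC, a log2 fold of 4.40 (SE 0.24, adjusted p = 1.74e-09). Of 19 collagen chains compared, 17 were called higher and 0 lower, with a median log2 fold of 4.40, or 4.38 without the 1 chain listed at 0 in both ESC libraries. That chain was Col16a1, at 67 and 110 in iPSC (adjusted p = 1.42e-07). Their median share of the MEF value was 7.61% and 13.3% in the iPSC libraries, and 18 of 18 chains measured for it were higher in replicate 2.

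Of 25 matrix glycoproteins and proteoglycans 15 were called higher, and of 27 enzymes that crosslink or cut matrix 18 were, with 0 lower in either list. Thbs1 (chromosome 2:118111876-118127133), which encodes thrombospondin 1, was at 2 and 60 in ESC and 2194 and 5030 in iPSC. Bmp1, a protease that matures procollagens, was at 2 and 3 in ESC and 112 and 205 in iPSC, a log2 fold of 5.46 (SE 0.26, adjusted p = 3.05e-10). Fbln2, a glycoprotein of elastic fibres, was at 36 and 80 in ESC and 869 and 1649 in iPSC, a log2 fold of 4.45 (SE 0.36, adjusted p = 2.98e-07). The values of iPSC and ESC did not overlap for any of these 3 genes.

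Genes that shape mesenchymal identity and the contractile skeleton were higher as well, in smaller shares of their lists. Of 18 mesenchymal transcription factors compared 8 were called higher and 1 lower. Among the 8, Runx1, Runx2, Twist2 and Zeb2 were under 10 in both ESC libraries and could only come out higher. Runx1, a regulator of blood and mesenchyme, was at 0 and 2 in ESC, 26 and 52 in iPSC and 440 and 420 in MEF. Of 20 contractile genes 9 were called higher, among them Tpm2, a tropomyosin, at 6 and 10 in ESC, 175 and 256 in iPSC and 2074 and 2614 in MEF (adjusted p = 1.25e-05). Of 20 fibroblast surface markers 11 were called higher, and Cd248, a receptor of stromal cells, was at 2 and 3 in ESC, 88 and 210 in iPSC and 914 and 1478 in MEF. Hox genes, which keep the positional identity of fibroblasts, were not higher as a list. Of 7 compared 3 had a fold above 0, with a median log2 fold of -0.55 and a lowest of -1.51. The 1 called higher was Hoxc6, at 2 and 1 in ESC, 11 and 27 in iPSC and 138 and 211 in MEF. It shares 13625 bases with Hoxc5 on the same strand. Dnm3os, a noncoding RNA of mesenchyme, was listed at 0 in both ESC libraries and stood at 123 and 162 in iPSC and 321 and 1951 in MEF, but it lies within Dnm3 on the other strand and reads of the pair cannot be separated without strand.

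AP-1 subunits and ERK pathway targets had higher median shares of the fibroblast level than the matrix lists, a difference that was not tested. Single genes overlapped between the lists. Mean iPSC shares ran from 13.7% (Fosl2) to 90.4% (Junb) over AP-1 subunits and from 17.0% to 65.2% over ERK targets. They ran from 5.01% to 19.2% over collagen chains, 0.361% to 37.3% over matrix glycoproteins and 4.88% to 35.5% over matrix enzymes. The median share of the MEF value was 31.4% and 38.2% in the iPSC libraries over 4 AP-1 subunits and 32.7% and 36.6% over 7 ERK targets, and 4 of the 4 subunits and 5 of the 7 targets were higher in iPSC replicate 2. In the ESC libraries the shares of these lists were also above those of the collagen chains, at 5.05% and 7.62% for AP-1 subunits and 7.52% and 3.76% for ERK targets against 0.167% and 0.919%. Members whose MEF mean was not more than 2 times the ESC mean had been left out, which limits the ESC shares. Of 10 AP-1 subunits compared 5 were called higher, and 3 with 10 added before log2, with limma run without trend and robust settings, without iPSC replicate 1 or without the day 5 libraries, and 2 without iPSC replicate 2 or ESC replicate 1. Jun (chromosome 4:95049034-95052222) was at 13 and 31 in ESC, 297 and 355 in iPSC, and 983 and 554 in MEF, and Fosl2 was at 1 and 3 in ESC, 90 and 158 in iPSC and 895 and 913 in MEF. The log2 fold was 3.94 for Jun (SE 0.37, adjusted p = 1.39e-06) and 5.41 for Fosl2 (SE 0.27, adjusted p = 4.63e-10). Jund, the subunit with little dependence on stimulation, differed by 0.16 and was not called. Junb had a fold of 2.94 and lost its call without iPSC replicate 2 (2.90) or ESC replicate 1 (2.67).

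Of 15 ERK targets compared 8 were called higher (5 with 10 added before log2 or without iPSC replicate 2, 3 with the spread from the 4 libraries), with a median log2 fold of 1.84, or 1.51 without Ereg, a ligand of the epidermal growth factor receptor, which was listed at 0 in ESC. Dusp6, the phosphatase that inactivates ERK, was at 10 in both ESC libraries, 121 and 100 in iPSC, and 320 and 227 in MEF (log2 fold 3.34, SE 0.41, adjusted p = 3.28e-05). Ier3, an immediate early gene, was at 10 in both ESC libraries, 141 and 206 in iPSC, and 367 and 165 in MEF, and so was MEF-between (log2 fold 3.96, SE 0.38, adjusted p = 1.9e-06). Etv5, an ERK-dependent transcription factor, was at 2035 and 1904 in ESC and 1860 and 1674 in iPSC and was not called. Myc was at 5 and 28 in ESC and 92 and 151 in iPSC, and its fold of 3.17 lost the call without iPSC replicate 1 (3.53), iPSC replicate 2 (2.82) or ESC replicate 1 (2.04).

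AP-1 binds the letters TGACTCA or TGAGTCA, which are each other's reverse complement. Of 32851 promoter windows of 250 bases before a start in the RefSeq table (GRCm38.p6), 4.46% held this motif. A count over the called genes was not made, because 72.5% of the 483 MEF-high genes called higher had a window, against 75.6% of all genes compared. To show where the letters lie, 3 windows of called genes were chosen after their values were seen, with the motif in capitals. Mmp13, a collagenase listed at 0 in ESC and at 42 and 47 in iPSC, has it 35 bases before the start (chr9:7272264-7272513, plus strand), and its adjusted p of 0.0119 became 0.0568 to 0.0910 when any 1 of the 4 libraries was left out. Col6a1, at 3 and 57 in ESC and 368 and 686 in iPSC, has it 90 bases before the start (chr10:76726045-76726294, minus strand). F3, which encodes tissue factor, at 15 and 23 in ESC and 118 and 182 in iPSC, has it 135 bases before the start (chr3:121723287-121723536, plus strand). Binding at these letters was not measured.
Mmp13: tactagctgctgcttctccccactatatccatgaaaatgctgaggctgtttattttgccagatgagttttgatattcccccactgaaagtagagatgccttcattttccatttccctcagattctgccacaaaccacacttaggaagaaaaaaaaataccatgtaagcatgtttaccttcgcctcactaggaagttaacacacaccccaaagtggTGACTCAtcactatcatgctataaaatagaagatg
Col6a1: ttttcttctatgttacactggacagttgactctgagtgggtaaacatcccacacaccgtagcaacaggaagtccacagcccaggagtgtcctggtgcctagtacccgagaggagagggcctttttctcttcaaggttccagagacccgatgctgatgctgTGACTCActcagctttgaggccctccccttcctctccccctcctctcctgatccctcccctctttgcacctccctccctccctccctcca
F3: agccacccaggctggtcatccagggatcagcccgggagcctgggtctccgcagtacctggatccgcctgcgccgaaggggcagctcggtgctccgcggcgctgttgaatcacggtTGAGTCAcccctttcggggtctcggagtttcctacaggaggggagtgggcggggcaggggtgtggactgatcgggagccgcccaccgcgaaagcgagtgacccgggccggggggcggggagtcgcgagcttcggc

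Secreted and growth factor genes followed. Of 11 inflammatory factors compared 8 were called higher, and Ccl2, a chemokine that draws monocytes, was listed at 0 in both ESC libraries, with 51 and 128 in iPSC and 182 and 221 in MEF. Ccl2, Cxcl1, Csf1 and Tnfaip3 of this list were under 10 in both ESC libraries and could only come out higher. Of 15 TGF-beta pathway genes 8 were called higher. Among these 8, the same limit held for Tgfb2, Tgfb3, Inhba and Ltbp2. Tgfb2, a ligand, was at 4 and 5 in ESC, 47 and 76 in iPSC and 570 and 303 in MEF (log2 fold 3.47, SE 0.37, adjusted p = 5.56e-06). Of 20 Yap and Tead targets 9 were called higher, among them Lats2, a kinase that restrains Yap, at 31 and 26 in ESC, 85 and 108 in iPSC and 612 in both MEF libraries. Of 13 insulin-like growth factor genes 6 were called higher, and Igfbp4, a binding protein, was at 17 and 32 in ESC, 207 and 184 in iPSC and 1189 and 975 in MEF (log2 fold 3.01, SE 0.40, adjusted p = 7.48e-05). The summed values of these lists were higher in both iPSC libraries than in both ESC libraries, as was the fibroblast marker sum. In iPSC all were higher in replicate 2, though Yap and Tead targets only at 7866 against 7804. In ESC the marker sum was higher in replicate 2 (839 against 263), while the sums of these lists were lower there. The part of fibroblast cells or their RNA in these lists was not tested.

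Imprinted genes are expressed from the allele of 1 parent, and 7 of 36 compared were called higher in iPSC, all of them MEF-high. Igf2, a fetal growth factor, was at 2 and 90 in ESC, 604 and 992 in iPSC and 8981 and 5488 in MEF, and Gnas, a G protein subunit, at 468 and 473 in ESC, 1156 and 1437 in iPSC and 5030 and 4019 in MEF. The log2 fold was 5.55 for Igf2 (SE 1.03, adjusted p = 0.00223) and 1.45 for Gnas (SE 0.27, adjusted p = 0.00192). Meg3, the noncoding RNA of the Dlk1-Dio3 locus, was at 520 and 1097 in ESC, 1375 and 1386 in iPSC, and was not called (0.87, SE 0.32, adjusted p = 0.131). Xist, the RNA that silences an X chromosome, was at 26 and 31 in ESC, 174 and 309 in iPSC and 1615 and 3617 in MEF, a fold of 2.99 (SE 0.79, adjusted p = 0.0293). Its call was lost when any of the 4 libraries was left out, with folds of 3.40 without iPSC replicate 1, 2.57 without iPSC replicate 2, 2.86 without ESC replicate 1 and 3.11 without ESC replicate 2. Xist shares 22889 bases with Tsix on the other strand, which was not called. Igf2 and Gnas also overlap transcripts of the other strand, Igf2os and Nespas, and reads within the shared stretches cannot be separated. Of 7 Y-linked genes 0 were called, and Ddx3y was at 511 and 407 in ESC and 416 and 336 in iPSC, so Y-linked transcripts were found in both groups; 1 of the 7 had an unadjusted p from limma under 0.05.

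**Figure D3:**
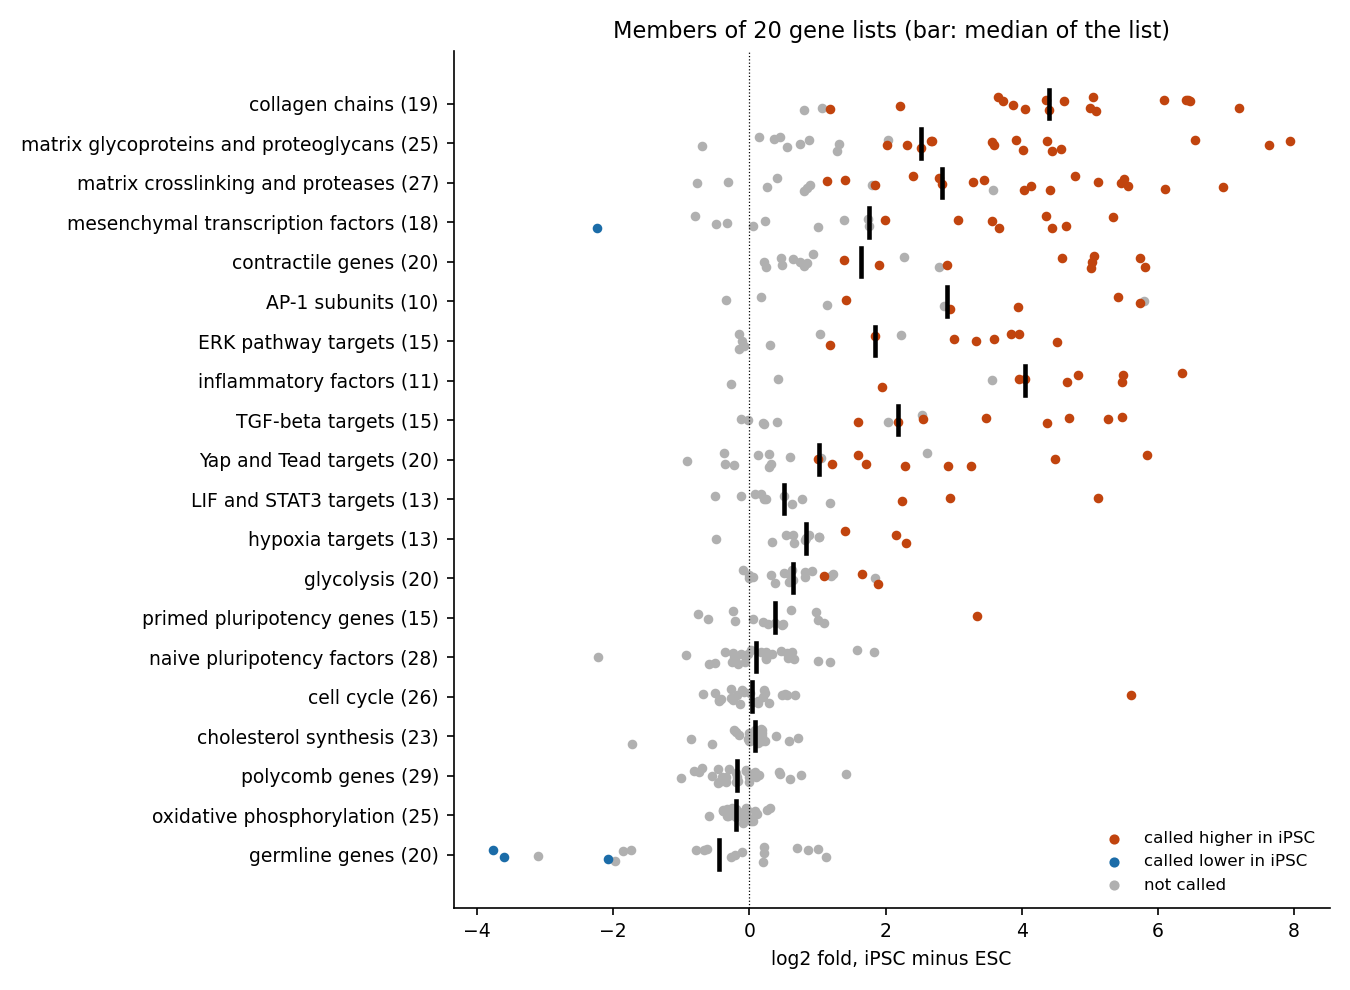
Log2 fold of iPSC over ESC for the members of 20 gene lists, with the number compared in brackets, red and blue points for genes called higher and lower, and black bars for list medians. The medians of the matrix, AP-1 and inflammatory lists lie to the right of 0 (collagen chains at 4.40), while naive pluripotency factors (0.10), cholesterol synthesis (0.09) and cell cycle genes (0.04) are centred near it.

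Some genes were higher in iPSC than in both ESC and MEF. Of the 45 MEF-low genes called higher, 17 were higher in iPSC replicate 2 than in replicate 1, compared with 433 of 483 MEF-high ones. Over the whole classes, called or not, this was so for 1565 of 4304 MEF-low and 1354 of 1948 MEF-high genes. The 17 of 45 were thus near the share of their class. The count of 45 was 19 without iPSC replicate 1, 16 without iPSC replicate 2, 29 without ESC replicate 1 and 27 without ESC replicate 2. Dnmt3l (chromosome 10:78041947-78063622), a cofactor that directs DNA methylation in germ cells, was at 57 and 30 in ESC, 525 and 349 in iPSC, 1 in both MEF libraries and 3 and 1 at OSK day 7. Its neighbour Aire, a regulator of self-antigen expression in thymus, was at 13 and 6 in ESC, 109 and 70 in iPSC, and listed at 0 in both MEF libraries (log2 fold 3.16, SE 0.57, adjusted p = 0.00137). The pair share 1664 bases at their ends on opposite strands, and reads within that stretch cannot be separated. The call of Dnmt3l (3.34, SE 0.70, adjusted p = 0.0051) was lost without iPSC replicate 1 (3.05) or ESC replicate 2 (2.89).

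Several MEF-low genes belong to sugar use and the response to low oxygen. Pdk1, which keeps pyruvate out of the mitochondrion, was at 90 and 107 in ESC, 557 and 430 in iPSC, 68 and 90 in MEF, and 402 and 290 at OSK day 7 (log2 fold 2.31, SE 0.36, adjusted p = 0.000379). Pfkl, a phosphofructokinase subunit, was at 408 and 419 in ESC, 1387 and 1224 in iPSC, and 478 and 661 in MEF (log2 fold 1.65, SE 0.28, adjusted p = 0.000712). Both iPSC libraries were above all ESC and MEF libraries for either gene. Ndufa4l2, a mitochondrial protein induced in low oxygen, was at 6 and 3 in ESC, 161 and 145 in iPSC and 306 and 663 at day 7, and its fold of 4.86 lost the call without iPSC replicate 1 (4.79), iPSC replicate 2 (4.94) or ESC replicate 2 (4.46). Of 20 glycolysis genes 3 were called higher and 0 lower, with a median fold of 0.63 and 18 folds above 0. These 3 were Pfkl, Pgk1 and Pgam1. The fold of Pgam1 was 1.09, and 0.94 without ESC replicate 1, which is under the threshold of 1. Of 13 hypoxia targets 3 were called higher, with a median of 0.83 and 12 folds above 0. They were Pdk1, Bnip3 and P4ha1, of which P4ha1 was MEF-high, at 440 and 461 in iPSC and 1464 and 1679 in MEF. Glycolytic genes that were not called include Ldha (0.82) and Aldoa (0.82), which passed the adjusted p and fell short of a fold of 1, and Hk2 (0.06, adjusted p = 1). Of 25 genes of oxidative phosphorylation 0 were called by limma and 1 had an unadjusted p under 0.05, with folds from -0.59 to 0.31.

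The factors that respond to low oxygen bind around the letters ACGTG, read on either strand. This motif was chosen after the values were seen, and 16.6% of the 32851 windows held it. To show where it lies, the windows of Bnip3 and Pgk1, also chosen after their values were seen, are printed with the letters in capitals. Bnip3, a mitochondrial protein of mitophagy, was at 136 and 110 in ESC and 592 and 511 in iPSC (window chr7:138909507-138909756, minus strand), and its 2 matches overlap because CACGTG reads alike on both strands. Pgk1, a kinase of glycolysis, was at 2152 and 2406 in ESC and 11667 and 6123 in iPSC (window chrX:106186850-106187099, plus strand), with 2 separate matches. Neither call held when any library was left out: folds were 2.05 without iPSC replicate 1, 2.27 without iPSC replicate 2, 2.31 without ESC replicate 1 and 2.01 without ESC replicate 2 for Bnip3, and 1.43, 2.36, 1.81 and 1.97 in the same order for Pgk1.
Bnip3: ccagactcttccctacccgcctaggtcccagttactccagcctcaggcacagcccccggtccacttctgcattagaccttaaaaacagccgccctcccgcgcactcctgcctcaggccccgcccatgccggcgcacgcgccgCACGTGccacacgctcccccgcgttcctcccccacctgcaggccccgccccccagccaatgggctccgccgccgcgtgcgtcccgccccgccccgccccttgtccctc
Pgk1: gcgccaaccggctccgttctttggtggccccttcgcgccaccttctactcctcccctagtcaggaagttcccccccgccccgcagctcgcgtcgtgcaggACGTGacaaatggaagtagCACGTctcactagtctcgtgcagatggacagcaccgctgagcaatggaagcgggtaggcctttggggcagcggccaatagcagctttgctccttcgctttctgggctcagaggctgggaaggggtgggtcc

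Among signalling genes, Socs3, the feedback inhibitor of LIF signalling, was at 135 and 318 in ESC, 1034 and 943 in iPSC, 214 and 283 in MEF and 611 and 551 at day 7 (log2 fold 2.25, SE 0.38, adjusted p = 0.000869). Of 13 LIF and STAT3 targets 3 were called higher, Socs3, which was MEF-low, Junb, which was MEF-between, and the receptor gene Osmr, which was MEF-high, and Stat3 itself differed by 0.25 and was not called. Tnfaip3, an inhibitor of NF-kappaB, was at 2 and 3 in ESC, 81 and 118 in iPSC, and 74 and 28 in MEF (log2 fold 4.83, SE 0.54, adjusted p = 1.09e-05). Prelp, a matrix proteoglycan, was at 2 in both ESC libraries, 59 and 100 in iPSC and 39 and 26 in MEF (log2 fold 4.70, SE 0.63, adjusted p = 7.74e-05). The MEF values of Tnfaip3 and Prelp, though lower than those of iPSC, were above those of ESC. Maob, a monoamine oxidase and MEF-between, was listed at 0 in both ESC libraries, with 66 and 53 in iPSC and 61 and 135 in MEF (adjusted p = 7.12e-09).

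**Figure D4:**
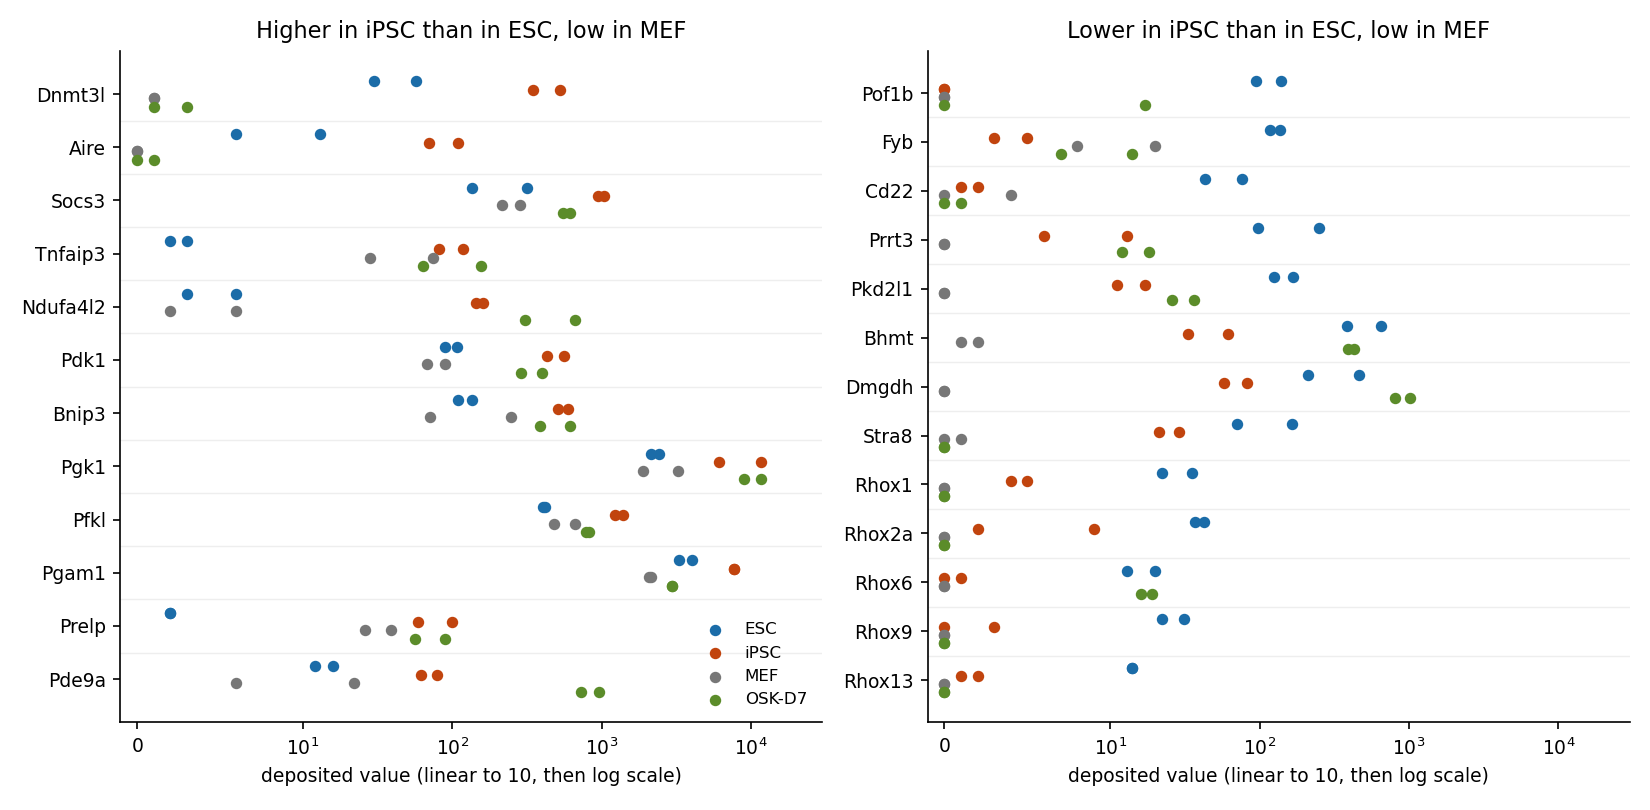
Deposited values in each library of ESC, iPSC, MEF and OSK day 7 for MEF-low genes that were called higher (left) or lower (right) in iPSC, on an axis that is linear to 10 and logarithmic beyond. The iPSC points do not overlap the ESC points in any row, as for Dnmt3l at 349 and 525 against 30 and 57.

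Many genes lower in iPSC were at low values there. Of the 162 MEF-low genes called lower, 84 were under 10 in both iPSC libraries. The count was 63 without iPSC replicate 2, 70 without ESC replicate 1 and 102 without ESC replicate 2. Bhmt (chromosome 13:93616675-93637961), which passes a methyl group from betaine to homocysteine, was at 386 and 646 in ESC, 61 and 33 in iPSC, 1 and 2 in MEF and 392 and 427 at OSK day 7. Its log2 fold was -3.45 (SE 0.64, adjusted p = 0.00187). Dmgdh (chromosome 13:93674433-93752833), the next enzyme of choline breakdown, was at 211 and 464 in ESC, 82 and 58 in iPSC, and 798 and 1019 at day 7. For both genes the iPSC values were under those of the day 7 cells and of ESC, without overlap. The call of Dmgdh (-2.17, SE 0.54, adjusted p = 0.0181) was lost without iPSC replicate 2 (-1.92) or ESC replicate 2 (-1.60).

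Pof1b, an actin-binding protein of epithelia, was at 138 and 94 in ESC and listed at 0 in both iPSC and both MEF libraries (adjusted p = 0.00421). Fyb, an adaptor of T cells, was at 117 and 137 in ESC, 5 and 3 in iPSC, and 8 and 20 in MEF (log2 fold -4.70, SE 0.86, adjusted p = 0.00171). Pkd2l1, a cation channel, was at 166 and 125 in ESC and 17 and 11 in iPSC (log2 fold -3.30, SE 0.49, adjusted p = 0.000217). For these 3 genes both iPSC libraries lay well under both ESC libraries. Rgma, a co-receptor of the BMP pathway, was lower in iPSC than in both ESC and MEF, with 25 and 27 against 124 and 190 in ESC and 227 and 242 in MEF (log2 fold -2.52, SE 0.23, adjusted p = 8.51e-07). Repin1, a zinc finger protein, was at 89 and 105 in ESC and 24 and 22 in iPSC (log2 fold -2.03, SE 0.29, adjusted p = 0.000132).

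Germline genes gave 3 calls lower and 0 higher among 20 compared, and these were Rhox6, Rhox9 and Stra8. The Rhox homeobox genes form a cluster on the X chromosome with roles in germ cells and placenta. They were looked at together after their values were seen, and because the cluster holds near-identical copies, such as those of Rhox2, the split of reads among them is uncertain. Of 10 Rhox genes listed, 6 were compared and 5 were called lower. All 5 were under 10 in both iPSC libraries, so they entered the comparison through ESC alone and could only come out lower. Rhox9 was at 22 and 31 in ESC and 0 and 3 in iPSC (log2 fold -3.76, SE 0.63, adjusted p = 0.000732), and Rhox2a at 42 and 37 in ESC and 2 and 9 in iPSC. Rhox5 was at 288 and 100 in ESC and 132 and 296 in iPSC and was not called. Leaving out libraries ended the calls of Rhox2a (-2.02 without iPSC replicate 1), Rhox13 (-2.32 without iPSC replicate 2) and Rhox1 (-2.26 without iPSC replicate 1, -2.52 without iPSC replicate 2 and -2.07 without ESC replicate 1). Rhox6 lost its call without any of the 4 libraries (-4.10, -3.10, -3.89 and -3.31 without iPSC replicates 1 and 2 and ESC replicates 1 and 2). Stra8, a switch of meiosis, was at 165 and 70 in ESC and 29 and 21 in iPSC, and lost its call without iPSC replicate 1 (-2.30), iPSC replicate 2 (-1.86) or ESC replicate 1 (-1.47).

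No naive pluripotency factor was called. Of 28 compared 0 were called by limma and 4 had an unadjusted p under 0.05, with a median fold of 0.10 and a range from -2.22 to 1.83. With 10 added before log2, Utf1 (1.55), Lin28a (1.78) and Tdgf1 (1.18) were called higher and Dppa3 (-2.14) lower, and 1 to 2 of these or of Tbx3 were called in 6 of the other settings. Dppa3, a maternal factor of the early embryo, was at 486 and 605 in ESC and 122 and 109 in iPSC, without overlap (adjusted p = 0.0862 with 1 added). Nanog was at 5023 and 4616 in ESC and 4616 in both iPSC libraries, Esrrb at 2402 and 3030 in ESC and 2793 and 2711 in iPSC. Tbx3, a factor of the naive state, was at 747 and 761 in ESC and 1540 and 1483 in iPSC, without overlap, and was not called (SE 0.38, adjusted p = 0.139). Of 15 primed pluripotency genes Dnmt3l alone was called. Of 29 polycomb genes, 18 genes of the Sin3 complex and 23 of cholesterol synthesis 0 were called by limma, with 5, 2 and 5 at an unadjusted p under 0.05, and of 26 cell cycle genes Ccnd2, a D-type cyclin, at 1 and 19 in ESC and 256 and 369 in iPSC, was the 1 called. A p that misses the threshold does not show that these genes were equal. The pooled error came from all 13 groups, among them MEF, where Nanog was at 8 and 6, and cells in reprogramming. It can thus exceed the spread within iPSC and ESC. The SE was 0.83 for Nanog and 0.97 for Pou5f1, which was at 5014 and 5015 in ESC and 4609 in both iPSC libraries. Without the libraries of day 5 of reprogramming, 616 higher and 263 lower genes were called.

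Of the 45 MEF-low genes called higher in iPSC, 29 were at 10 or more in both OSK day 7 libraries and 14 were under 10 in both. Of the 162 MEF-low genes called lower, 73 were at 10 or more in both day 7 libraries, 72 were under 10 in both, and in 55 both day 7 libraries were above both iPSC libraries. Of the 483 MEF-high genes called higher, 231 had both day 7 libraries above both iPSC libraries and 144 had both under them. Col12a1 was 1 of the 144, at 117 and 59 at day 7 against 2150 and 6115 in iPSC, and Tagln, a contractile protein, another, at 8 and 5 against 251 and 505. For these 2 genes the iPSC were further from ESC than the day 7 cells were. Day 7 counts were not made over all genes of each MEF class. The counts above therefore do not set the called genes apart from the rest of their class.

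**Figure D5:**
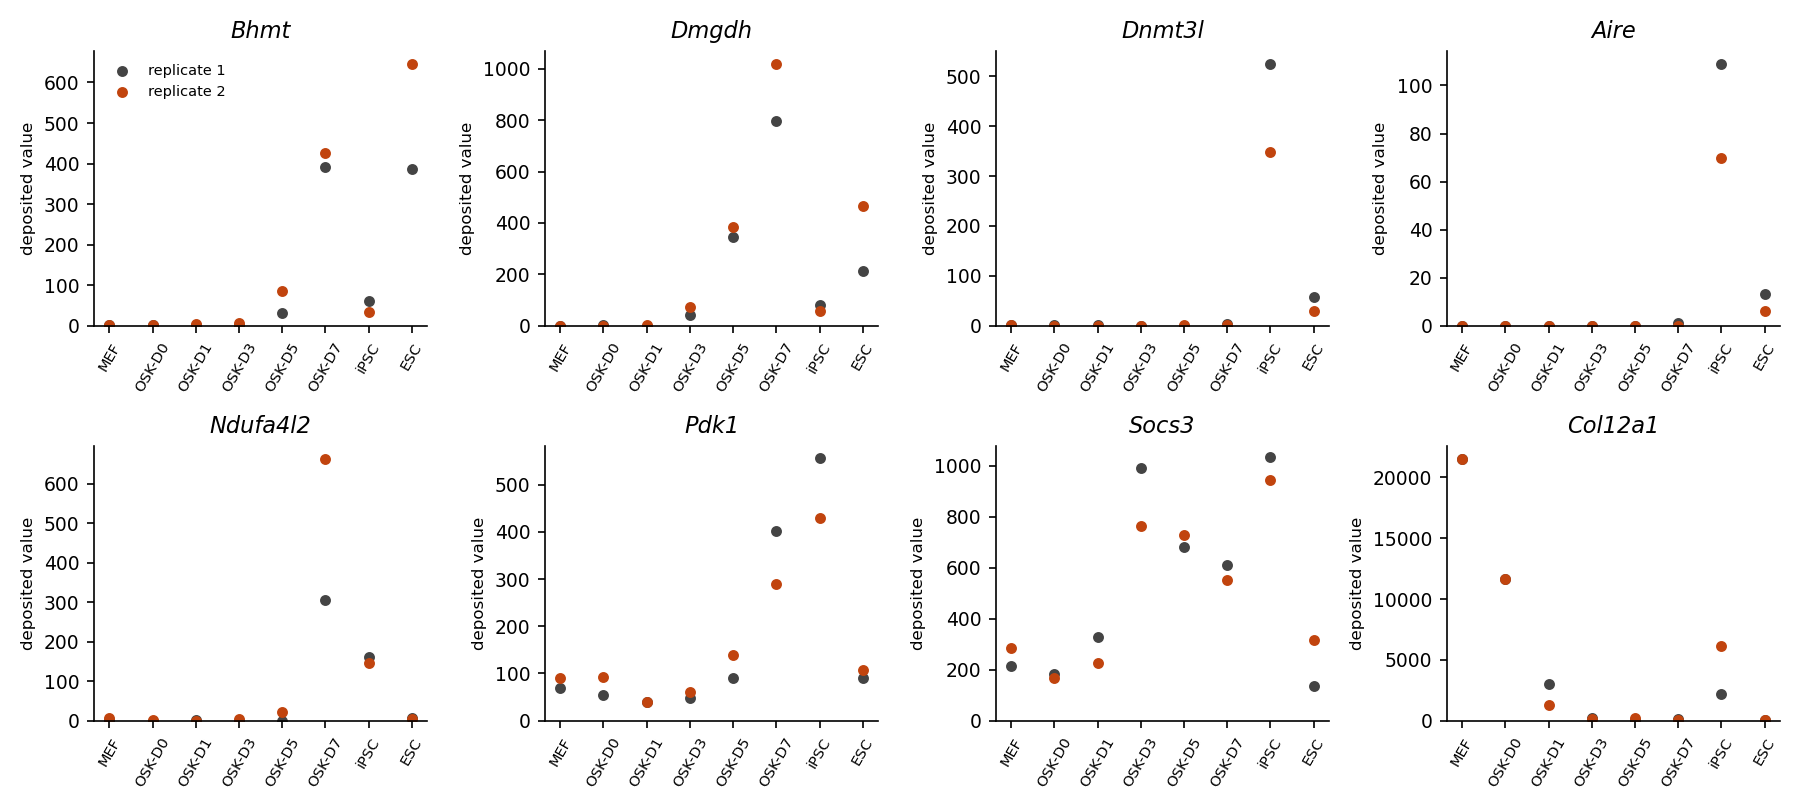
Deposited values of 8 genes in MEF, at days 0 to 7 of OSK reprogramming, in iPSC and in ESC, with 1 point for each replicate. Bhmt and Dmgdh are high at day 7 and in ESC and lower in iPSC, Dnmt3l and Aire are highest in iPSC among these groups, and Col12a1 is at 117 and 59 at day 7 and at 2150 and 6115 in iPSC.

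By chromosome, median folds were lowest on chromosome 11 (-0.18 over 1019 genes), chromosome 6 (-0.15 over 613) and chromosome 8 (-0.11 over 674), and highest on chromosome 3 (0.07 over 636). Without MEF-high genes they were -0.23, -0.21 and -0.15 on chromosomes 11, 6 and 8, and 0.02 on chromosome 3, with chromosomes 12 and 10 then highest at 0.03.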

How the data were processed

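Per the labels' protocols, RNA was extracted with TRIzol, made into TruSeq libraries and read on a NextSeq 500; the kit named does not mark strand. The submitters' processing notes name bcl2fastq, Bowtie2, RSEM and the mm10 build and give no versions. The deposited values are a normalised score as made by the authors, not counts: sorted values were equal between the 26 libraries to within 2 at every rank, so differences in total RNA or depth are not visible, and the highest value, 21544, was held by 10 genes per library. The test planned for counts was therefore not used.

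Values plus 1 were taken to log2, and limma 3.58.1 in R 4.3.3 (statmod 1.5.0, trend and robust) was fitted to the 16038 genes that reached 10 in 2 or more of 26 libraries, with 1 mean for each of 13 groups. Calls needed a limma p below 0.05 after Benjamini-Hochberg adjustment over all genes fitted, and a log2 fold of 1 or more. Of 18198 genes 18039 matched a symbol. Named genes were those called, not overlapping and at a mean of at least 50, taken by fold within each MEF class (10, 10 and 6 of those higher, 10, 6 and 6 of those lower), a fixed set of genes always looked at, and up to 4 members of each of 44 lists; others are said to be chosen after their values were seen, as were Dmgdh and uncalled list members given for contrast. The members and lists were chosen with earlier results of these data known. The method was tested on simulated data with 16038 genes, where 72% of 100 genes given a log2 change of 1.5 and 89% of 100 given 3 were recovered and 4 unchanged genes were called. The simulation gave each gene the same normal spread in all groups and changed only genes well above the floor in ESC. It does not cover genes near 0 in ESC, nor spreads that differ between groups. Alternatives were another amount added before log2, other filters, the spread from fewer libraries, limma without trend, libraries shifted to 1 median, the replicate block, each replicate left out, other margins for the MEF class and, added after the data were seen, the fit without the OSK day 5 libraries. Tables were handled with pandas 2.3.3 and figures drawn with matplotlib 3.10.9 in Python 3.11.15. A gene that the naming rule selects is not reported here.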

Additional observations from a re-analysis of the deposited data

How the results depend on the processing

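Genes called numbered 604 higher and 244 lower. With the spread from the 4 iPSC and ESC libraries they numbered 217 and 159, of which 181 and 62 were shared with the reported calls. With the spread from the 6 iPSC, ESC and MEF libraries they numbered 309 and 103. Leaving out 1 library gave from 354 to 612 higher and from 105 to 270 lower. MEF-high genes called higher numbered 483, and 130 and 248 with the spread from 4 and 6 libraries, and from 309 to 485 with a library left out. MEF-low genes called higher numbered 45, and 29 with 0.1 added before log2, 72 with 10 added, 26 with the spread from 6 libraries and from 16 to 55 with a library left out. MEF-low genes called lower numbered 162, and 100 with 0.1 added, 305 with 10 added, 102 and 61 with the spread from 4 and 6 libraries, and from 63 to 183 with a library left out. With 10 added the totals were 541 higher and 366 lower. The lone library of a group is then assumed to vary like the other groups. The cause of these moves was not tested, beyond the fewer libraries that some settings use.

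With the spread from the 4 libraries the genes called higher fell from 17 to 6 for collagen chains, 15 to 3 for matrix glycoproteins, 18 to 6 for matrix enzymes, 8 to 1 for mesenchymal factors, 9 to 3 for contractile genes, 11 to 6 for surface markers, 8 to 4 for both inflammatory and TGF-beta genes, 6 to 3 for insulin-like growth factor genes and 7 to 1 for imprinted genes. Germline genes called lower numbered 3, and 0 with that spread and 5 with 10 added before log2. Without iPSC replicate 2, inflammatory factors called higher numbered 5 and imprinted genes 4.

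Over genes with a mean of at least 100, chromosome medians were -0.159 on chromosome 11, -0.163 on chromosome 6 and -0.0806 on chromosome 8. With a library left out they ran from -0.203 to -0.169 on chromosome 11, from -0.167 to -0.146 on chromosome 6, from -0.123 to -0.0758 on chromosome 8 and from 0.0751 to 0.0887 on chromosome 3. The share of the MEF value moved little, from 6.31% to 7.20% over both libraries with other minimum values in MEF.

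With the replicate number as a block, 640 genes were called higher and 285 lower, of which 603 and 242 were shared with the reported calls. Same-numbered libraries of the 2 groups had a correlation of 0.13 in their differences between replicates, and the labels do not say that a number marks a shared batch, so the samples share only a number. Of 132 named genes that were called, 67 held the call with the spread from 4 libraries, 84 with that from 6, and 92 without iPSC replicate 2, while all 132 did with libraries shifted to the same median, with no filter on low values and under the replicate block. Depth is not visible in these values, so no limit from counting can be given.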
